A study of Mus musculus musculus x Mus musculus castaneus with 12 samples.

Results

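The genes described here are 10 genes of the p53 pathway, *Trp53*, *Mdm2*, *Mdm4*, *Cdkn1a*, *Ccng1*, *Bax*, *Bbc3*, *Zmat3*, *Trp53inp1* and *Sesn2*, chosen by gene symbol from the 24346 genes in the files, and all 10 were found. RNA-seq was done in 12 samples of mouse embryonic stem (ES) cells from reciprocal crosses between C57BL/6J (BL6) and *Mus castaneus* (*cast*), in which *Kdm6a*, the X-linked gene of a histone H3 lysine 27 demethylase, had been left intact or deleted by CRISPR/Cas9. BC cells (*Mus musculus* x *Mus castaneus*) comprised 2 male wild-type (wt) samples, the male exonic knockout (KO) clones ΔE1 and ΔE3, the male promoter KO clone ΔP4, and 2 female wt samples. CB cells (*Mus castaneus* x *Mus musculus*) comprised 2 male wt samples, the male exonic KO clones ΔE2.5 and ΔE2.7, and the male promoter KO clone ΔP2.1. According to the study, all cells were grown with serum and LIF on a layer of inactivated mouse embryonic fibroblasts. These were reduced by plating on gelatin and a later split, and the CB wt line carried an actin-GFP transgene. ΔE1 and ΔE3 carried the same unintended deletion over *Sh3kbp1*, *Map3k15* and *Pdha1*, and the study gives them a common origin. The tests count them as 2 samples, and with the 2 averaged 0 of 10 genes were called in BC KO or exonic clones, as without averaging. No animal ages or passage numbers are given in the labels, and nothing in them says whether wt replicates were separate cultures, so p-values measure the spread between these samples, which may be technical.

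The p53 protein, encoded by *Trp53*, is a transcription factor that is stabilised by DNA damage and other stresses and then induces genes of cell cycle arrest, apoptosis and metabolic adaptation. MDM2 is a ubiquitin ligase that marks p53 for degradation and is itself induced by p53, and its relative MDM4 binds p53 and blocks its activity. ES cells are known for abundant p53 that is controlled largely at the protein level, which RNA-seq does not measure.

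The edited clones are defined by the guide RNAs used to cut *Kdm6a*, shown here as protospacers with the PAM in capitals because the clone names follow them.
ΔE Left: gaaacctcacgaacccgaaaAGG
ΔE Right: tagcattatctgcataccagAGG
ΔP Left: ggacactgcatgtttgatggAGG
ΔP Right: agctacatactccaaaggagAGG
The ΔE Left protospacer matched the minus strand of exon 2 of *Kdm6a* at chrX:18163390-18163409 (GRCm38, transcript Kdm6a-201), with its PAM beside it. The other guides were not matched to a *Kdm6a* transcript and are given without a position. *Kdm6a* itself stood at 49.8 and 51.3 TPM (fragments divided by transcript length and scaled to the same total in every sample) in BC wt, 11.6 in ΔE1, 13.5 in ΔE3 and 0.0441 in ΔP4. It stood at 51.0 and 51.7 TPM in CB wt, 2.07 in ΔE2.5, 7.28 in ΔE2.7 and 0.0364 in ΔP2.1. The transcript was thus lower in every clone labelled KO than in the wt samples of its cross.

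Libraries held 49975599 to 89070402 fragments assigned to genes, of which 17.8% to 18.2% carried a strain-specific SNP. All 12 ES cell markers examined, *Pou5f1* and *Nanog* among them, were above 1 TPM in every sample. The 2 CB wt samples were much closer to each other than other wt pairs: 12.8% of genes differed between them by more than the 95% limit of a chi-square test of their counts, against 44.1% in BC wt and 36.4% in female wt. Of the 10 p53 pathway genes, 1 passed that limit between the CB wt samples, 9 between the BC wt samples and 6 between the female samples. ΔP2.1 stood apart in its alleles: of 8702 autosomal genes with 25% to 75% BL6 fragments in both CB wt samples, 100 had under 10% in ΔP2.1, against 4 in ΔE2.5 and 1 in ΔE2.7. Of 176 genes under 10% in both CB wt samples, 76 lay between 25% and 75% in ΔP2.1 and 0 did in each of the exonic clones. Where ΔP2.1 is compared with other CB samples, these allele differences cannot be told apart from the promoter deletion. The value without ΔP2.1 is given where leaving it out changed a call.

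In the wt lines, *Trp53* and the apoptosis gene *Bax* were the most abundant of the 10 transcripts per unit length, by the transcript lengths used for TPM here. With the joined length of all exons of a gene instead, *Ccng1* stood above *Trp53* in CB wt. It then had 519 and 528 TPM, against 425 and 419 for *Trp53* and 531 and 525 for *Bax*. *Trp53* (chromosome 11:69580359-69591873, plus strand) stood at 852.5 and 732.9 TPM in male BC wt, 629.5 and 620.1 in male CB wt, and 444 and 415 in female BC wt. *Bax* (chromosome 7:45461697-45466898, minus strand), whose product permeabilises the outer mitochondrial membrane, stood at a mean of 764 ± 82.6 TPM (SD, n = 2) in BC wt and 656 ± 5.49 (SD, n = 2) in CB wt. In male BC wt the values of *Trp53* and *Bax* overlapped, while in CB wt *Bax* was above *Trp53* in both samples.

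The order below these 2 transcripts differed between the crosses. In BC wt it ran from *Ccng1* (162 ± 10.6 TPM, SD, n = 2) through *Mdm4*, *Mdm2*, *Sesn2*, *Trp53inp1*, *Cdkn1a* and *Bbc3* to *Zmat3* (41.9 ± 5.65). In CB wt it ran from *Ccng1* (358 ± 4.58 TPM, SD, n = 2) through *Mdm2*, *Cdkn1a*, *Trp53inp1*, *Sesn2*, *Mdm4* and *Zmat3* to *Bbc3* (56.5 ± 1.41). *Mdm4* thus ranked 4 among the 10 in BC and 8 in CB. These orders depend on the gene length used. With the joined length of all exons, *Mdm4* stood at 108 and 101 TPM in BC wt, below *Mdm2* at 112 and 122. Besides *Trp53* and *Bax* in BC, no neighbours in either order overlapped in their sample values, although in CB *Mdm4* (61.7 and 59.98 TPM) and *Zmat3* (59.73 and 59.59) nearly met.

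**Figure D1:**
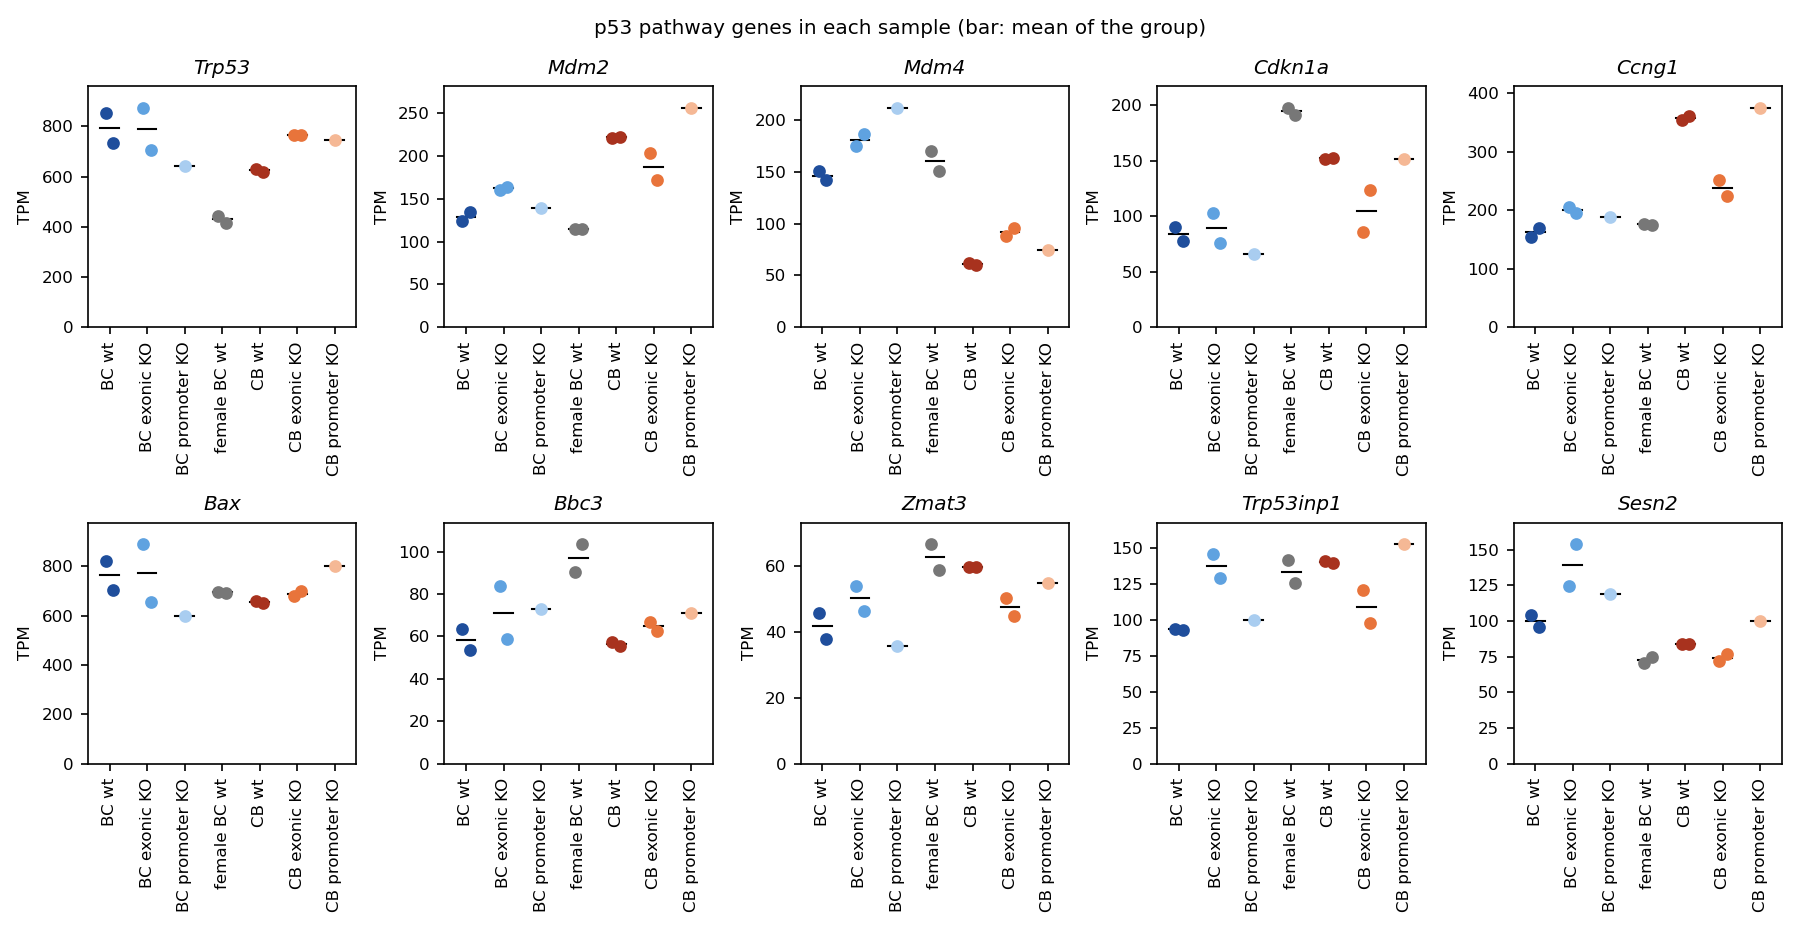
TPM of each of the 10 genes (vertical axis, linear from 0) in the 12 samples, with points for samples coloured by group and a bar for the mean of the group. *Mdm4* lay between 59.98 and 95.3 TPM in the CB samples and between 142 and 212 in the BC samples, while *Ccng1* was highest in CB wt and ΔP2.1.

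In the BC cross no p53 pathway gene passed the test between the KO clones and wt. With edgeR's quasi-likelihood test, a call being a Benjamini-Hochberg adjusted p under 0.05 with at least a 1.5-fold change, 0 of 10 genes passed, where 0.029% of the 13805 genes tested did. DESeq2 also called 0 of 10 (1.88% of genes), and 2 had an unadjusted p under 0.05 in edgeR, both higher, where 11.0% of all genes tested did. These 2 were the inhibitor *Mdm4* and the stress gene *Sesn2*. The median log2 fold change of the 10 genes was 0.23, against 0.01 over all genes tested. *Kdm6a*, the edited gene, was not called in this comparison either, at a log2 fold change of -2.60 ± 1.30 (SE, edgeR adjusted p = 0.51). A count of 0 therefore does not show that the genes were unchanged.

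*Trp53* stood at 874 TPM in ΔE1, 706 in ΔE3 and 644 in ΔP4, around the wt values of 852.5 and 732.9 TPM. Its log2 fold change in KO against wt was -0.13 ± 0.16 (SE), with an edgeR adjusted p of 0.80. KO and wt values overlapped.

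The inhibitor genes of p53 lay above both wt samples in all 3 BC clones, without passing the test. *Mdm2* (chromosome 10:117688875-117710758, minus strand) stood at 124 and 135 TPM in wt, 161 in ΔE1, 164 in ΔE3 and 139 in ΔP4, a log2 fold change of 0.22 ± 0.13 (SE, edgeR adjusted p = 0.59). *Mdm4* (chromosome 1:132959484-133030561, minus strand) stood at 151 and 142 TPM in wt, 175 in ΔE1, 187 in ΔE3 and 212 in ΔP4, a log2 fold change of 0.34 ± 0.11 (SE, edgeR adjusted p = 0.36). In TPM, 5 of the 10 genes had all 3 clones above both wt samples, where 20.9% of all genes did, and 0 had all clones below them, where 10.9% did. The others among these 5 were *Ccng1*, *Trp53inp1* and *Sesn2*.

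Among the targets in the set of 10, *Trp53inp1* and *Sesn2* had the largest fitted differences in the BC exonic clones. *Trp53inp1* (chromosome 4:11156431-11174379, plus strand), which encodes a stress-induced p53 cofactor with a role in autophagy, stood at 94.1 and 93.3 TPM in wt, 146 in ΔE1, 129.5 in ΔE3 and 100.3 in ΔP4. Its log2 fold change in the exonic clones was 0.54 ± 0.10 (SE), with an edgeR adjusted p of 0.10 and, in DESeq2, an adjusted p of 0.00095 at a change below 1.5-fold. *Sesn2* (chromosome 4:132492032-132510501, minus strand), encoding a sestrin that restrains mTORC1, stood at 104 and 96.0 TPM in wt, 125 in ΔE1, 154 in ΔE3 and 119 in ΔP4, a log2 fold change of 0.46 ± 0.13 in the exonic clones (SE, edgeR adjusted p = 0.19). In the exonic clones 0 of 10 genes were called by edgeR, where 0.00724% of genes tested were, 0 by DESeq2 (4.83% of genes), and 5 had an unadjusted p under 0.05 in edgeR, where 17.7% of genes did. In TPM, 6 of 10 genes had both exonic clones above both wt samples (27.5% of all genes) and 0 had both below (22.9%). With 1 clone left out *Sesn2* was called without ΔE1 (log2 fold change 0.61, edgeR adjusted p = 0.00070) and *Trp53inp1* without ΔE3 (0.62, edgeR adjusted p = 0.0022). In those fits 18.8% and 9.74% of all genes were called, so 1 of 10 is at or near the background, and the lone exonic clone is assumed to vary like the wt pair.

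The remaining targets in BC overlapped wt or differed in direction between clones. *Cdkn1a* (chromosome 17:29090976-29100727, plus strand), which encodes the cyclin-dependent kinase inhibitor p21, stood at 90.4 and 77.7 TPM in wt, 103 in ΔE1, 75.7 in ΔE3 and 66.0 in ΔP4. *Bbc3* (chromosome 7:16308393-16318205, plus strand), encoding the BH3-only protein PUMA, stood at 63.3 and 53.7 TPM in wt, 83.7 in ΔE1, 58.5 in ΔE3 and 72.7 in ΔP4. *Bax* and *Zmat3* were above both wt samples in ΔE1 and below both in ΔP4. Against the promoter clone ΔP4, 9 of the 10 genes had higher fitted values in the exonic clones, with 0 calls in edgeR (0.0145% of genes tested), 0 in DESeq2 (3.82% of genes) and 3 genes at an unadjusted p under 0.05 (17.0% of genes). Without ΔE3, which sets 1 library against 1 with a spread taken from the wt pair, *Bax*, *Cdkn1a*, *Trp53inp1* and *Zmat3* passed the thresholds, as did 13.8% of all genes, and this compares ΔE1 with ΔP4 as libraries only.

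In the CB cross as well, 0 of 10 genes were called when all 3 KO clones were set against wt (0.0% of 13801 genes tested). DESeq2 called 0 of 10 (3.58% of genes), and 3 had an unadjusted p under 0.05 in edgeR, all higher, where 20.5% of all genes did. The 3 were *Trp53*, *Mdm4* and *Bbc3*. In TPM, *Trp53*, *Mdm4*, *Bax* and *Bbc3* had all 3 clones above both wt samples, where 14.7% of all genes did, and *Cdkn1a* and *Zmat3* had all 3 below, where 32.3% of all genes did. Without ΔP2.1 the comparison is that of the exonic clones, in which *Mdm4* was called. Over all 3 clones *Kdm6a* itself was not called, at a log2 fold change of -3.95 ± 1.25 (SE, edgeR adjusted p = 0.19). The count of 0 therefore does not show that the genes were unchanged.

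*Trp53* values in the CB clones lay close together, at 767 TPM in ΔE2.5, 765 in ΔE2.7 and 746 in ΔP2.1, against 629.5 and 620.1 in wt. All 3 clones were above both wt samples. The log2 fold change was 0.36 ± 0.07 (SE) over the 3 clones, with adjusted p-values of 0.13 in edgeR and 7.1e-05 in DESeq2. In the exonic clones alone it was 0.38 ± 0.05 (SE, edgeR adjusted p = 0.027), below the 1.5-fold limit.

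*Mdm4* was the only one of the 10 genes called in an exonic comparison with wt under the chosen test. It stood at 61.7 and 59.98 TPM in CB wt, 88.0 in ΔE2.5, 95.3 in ΔE2.7 and 74.7 in ΔP2.1. The exonic clones were higher by a log2 fold change of 0.67 ± 0.07 (SE, 1.60-fold, edgeR adjusted p = 0.0205, DESeq2 adjusted p = 3.2e-09). In this comparison 6.73% of 13801 genes were called, 2.62% as higher, so 1 of 10 members is near the background, and DESeq2 called the same 1 gene (9.12% of genes). At an adjusted p under 0.05 and any fold 3 of 10 passed in edgeR (13.2% of genes), and 6 at an unadjusted p (35.4%). The call needs both CB wt samples: without CB wt 1 the log2 fold change was 0.69 at an adjusted p of 0.28, and without CB wt 2 it was 0.66 at an adjusted p of 0.28, both in edgeR. Over all genes the count of calls fell to 0 without either of those samples.

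*Ccng1*, encoding cyclin G1, a target that feeds back on MDM2, had the largest lower value in the CB exonic clones. *Ccng1* (chromosome 11:40748552-40755311, minus strand) stood at 354 and 361 TPM in wt, 251 in ΔE2.5, 224 in ΔE2.7 and 375 in ΔP2.1. Its log2 fold change in the exonic clones was -0.51 ± 0.07 (SE, edgeR adjusted p = 0.029), below the 1.5-fold limit, and against ΔP2.1 it was -0.64 ± 0.09 (SE, edgeR adjusted p = 0.053, DESeq2 adjusted p = 7.9e-06). For this gene the exonic clones thus lay below wt, while ΔP2.1 was close to wt, at a log2 fold change of 0.13 ± 0.09 (SE).

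*Mdm2*, *Cdkn1a*, *Zmat3*, *Trp53inp1* and *Sesn2* also lay below both wt samples in both CB exonic clones. *Cdkn1a* stood at 151.4 and 152.7 TPM in wt, 85.7 in ΔE2.5, 123 in ΔE2.7 and 151.2 in ΔP2.1, a log2 fold change of -0.46 ± 0.19 in the exonic clones (SE, edgeR adjusted p = 0.18). *Mdm2* stood at 221.5 and 222.2 TPM in wt, 203 in ΔE2.5, 171 in ΔE2.7 and 256 in ΔP2.1, and *Trp53inp1* at 141 and 139.9 in wt, 121 in ΔE2.5, 97.8 in ΔE2.7 and 153 in ΔP2.1. With *Ccng1*, 6 of 10 genes had both exonic clones below wt and 4 had both above, where 42.2% and 24.7% of all genes did. ΔE2.5 had the lower *Cdkn1a* and ΔE2.7 the lower *Mdm2*, *Ccng1*, *Zmat3* and *Trp53inp1*, and without ΔE2.7 *Cdkn1a* was called lower (log2 fold change -0.76), in a fit of 1 exonic clone against the near-identical wt pair in which 17.9% of all genes were called.

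**Figure D2:**
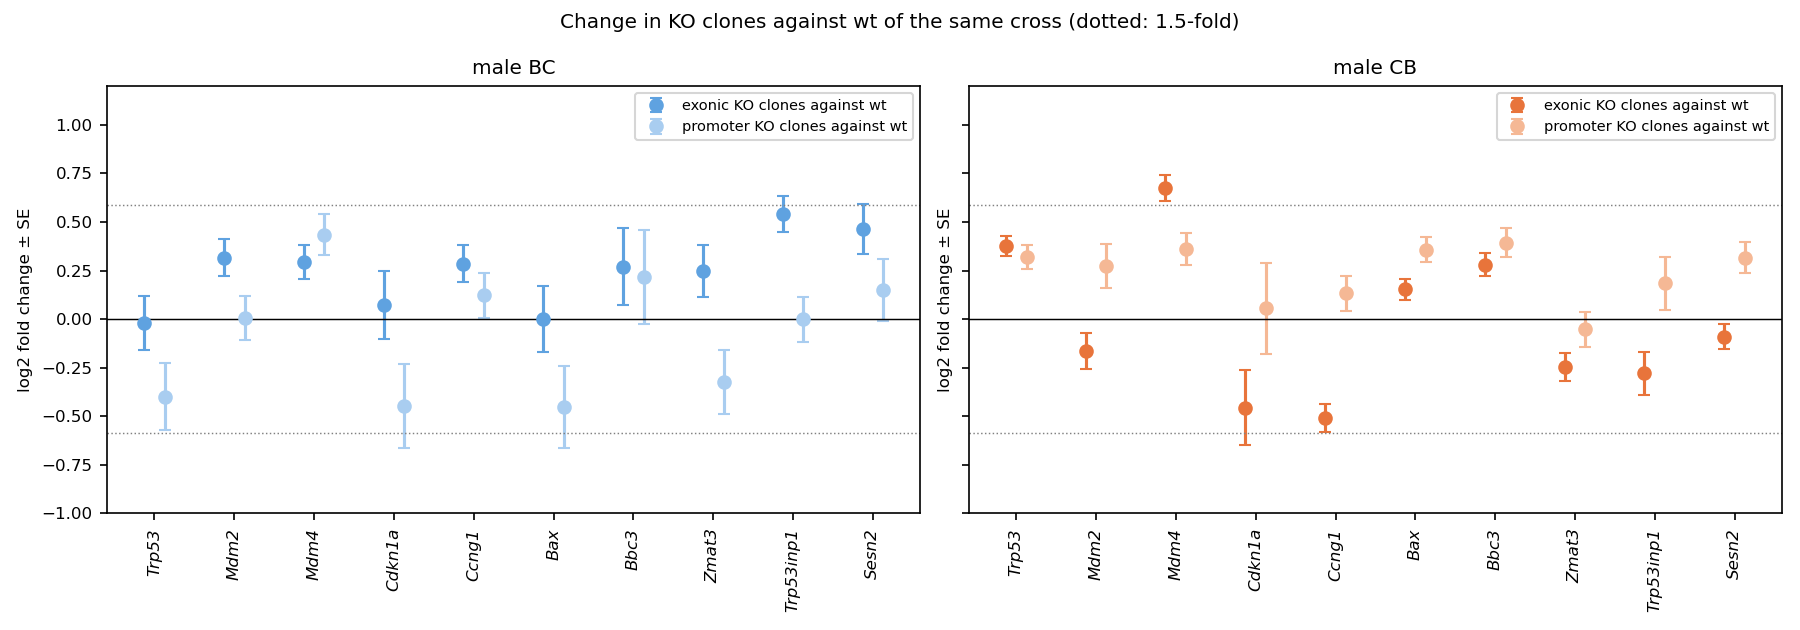
Fitted log2 fold change (vertical axis, points with SE bars) of the 10 genes in exonic and promoter KO clones against the wt samples of their own cross, BC at left and CB at right, with dotted lines at 1.5-fold. *Mdm4* in the CB exonic clones, at 0.67, is the point beyond the dotted line there, and *Ccng1* at -0.51 is the lowest.

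The promoter clones, 1 in each cross, gave 0 calls among the 10 genes in edgeR (0.0217% of genes tested in BC and 0.0797% in CB, of which 0.0507% higher) and 0 in DESeq2 (2.83% and 3.02% of genes). In ΔP4, 1 gene had an unadjusted p under 0.05 (15.9% of genes), namely *Mdm4* at a log2 fold change of 0.44 ± 0.11 (SE). In ΔP2.1, 5 genes did (22.3% of genes), all higher: *Trp53* (0.32 ± 0.06), *Mdm4* (0.36 ± 0.08), *Bax* (0.36 ± 0.07), *Bbc3* (0.39 ± 0.07) and *Sesn2* (0.32 ± 0.08), each a log2 fold change with SE. In TPM, ΔP4 was above both wt samples for 6 genes (55.5% of all genes) and below both for 4 (29.9%), and ΔP2.1 above both for 8 (34.9%) and below both for 2 (56.2%). Exonic clones against ΔP2.1 gave 0 calls in edgeR (2.14% of genes) and 1 in DESeq2 (6.13% of genes), which was *Ccng1*, with 6 genes at an unadjusted p under 0.05 (24.2% of genes), 5 of them lower in the exonic clones. The comparisons with ΔP2.1 also hold its allele differences from CB wt, given above, beside the promoter deletion.

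The difference between crosses was tested directly. For all KO clones, 0 of 10 genes had a KO effect that differed between BC and CB in edgeR (0.0629% of 14298 genes) and 0 in DESeq2 (3.88% of genes), with 1 gene, *Trp53*, at an unadjusted p under 0.05 (16.8% of genes). Without ΔP2.1, *Ccng1* was called, with a log2 fold change higher in BC than in CB by 0.76 ± 0.14 (SE, edgeR adjusted p = 0.038), where 2.15% of genes were. For the exonic clones alone, a comparison chosen after the data were seen, 2 of 10 genes differed in edgeR (5.79% of genes), and the same 2 in DESeq2 (9.9% of genes). *Ccng1* had a log2 fold change higher in BC than in CB by 0.80 ± 0.13 (SE, edgeR adjusted p = 0.021) and *Trp53inp1* by 0.83 ± 0.16 (SE, edgeR adjusted p = 0.031). For both genes both exonic clones were above wt in BC and below wt in CB. Without any 1 of the 4 male wt samples neither gene was called, at adjusted p-values between 0.11 and 0.18 in edgeR, and over all genes the number called fell from 828 to 2 or 3.

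Chromosome dosage was then set beside each gene's own difference. In the CB exonic clones, the median of 755 chromosome 1 genes lay above wt by 0.39 in ΔE2.5 and 0.32 in ΔE2.7 on the scale of log2((TPM + 1)/(mean wt TPM + 1)), which are ratios of 1.31 and 1.25. In the BC exonic clones, the median of 719 chromosome 8 genes lay below wt, at -0.42 in ΔE1 and -0.46 in ΔE3, ratios of 0.748 and 0.729. The median BL6 share of chromosome 8 genes was 66.8% and 67.1% in BC wt, 67.7% in ΔP4, 51.1% in ΔE1 and 51.6% in ΔE3. Over the autosomes other than 1 and 8 it was 51.4% to 51.5% in these samples. The unequal share on chromosome 8 was thus that of BC wt and ΔP4, and the exonic clones lay near the other autosomes. Medians of chromosomes 3, 4, 7, 10, 11 and 17, which carry the other 9 genes, lay between -0.14 and 0.11 of wt over the 6 clones. None of the 10 genes lies on chromosome 8, so *Mdm4* is the one whose chromosome was changed.

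*Mdm4* exceeded its chromosome in every clone. On the same log2 scale its own difference from wt was 0.53 in ΔE2.5 and 0.64 in ΔE2.7, leaving 0.14 and 0.32 after the chromosome 1 median is taken off. Of the chromosome 1 genes, 64.4% lay lower than *Mdm4* in ΔE2.5 and 83.0% in ΔE2.7. In the clones in which chromosome 1 did not rise as a whole, *Mdm4* minus the chromosome median was 0.42 in ΔP2.1, 0.23 in ΔE1, 0.33 in ΔE3 and 0.39 in ΔP4. The part of the *Mdm4* difference that follows the chromosome cannot be told apart from a KO effect in the exonic CB clones, since both carry both changes. DNA copy number was not analysed here.

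SNP-containing fragments showed which *Mdm4* allele was higher, and it was not the same one in the 2 CB exonic clones. The BL6 share of *Mdm4* fragments was 61.2% in CB wt 1 (95% Wilson interval 59.2% to 63.1%, 2435 SNP fragments) and 60.2% in CB wt 2 (58.2% to 62.1%, 2374 fragments). It was 73.6% in ΔE2.5 (72.2% to 74.99%, 3863 fragments), 46.5% in ΔE2.7 (44.9% to 48.1%, 3869 fragments) and 61.0% in ΔP2.1 (59.2% to 62.7%, 2896 fragments). The exonic clones thus lay on opposite sides of wt, with intervals that did not meet those of wt, while that of ΔP2.1 met both. Intervals cover counting error only.

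Scaled to 1000000 diploid fragments, the BL6 allele of *Mdm4* gave 29.0 and 27.8 fragments in CB wt and the *cast* allele 18.4 in each. ΔE2.5 gave 53.3 BL6 and 19.1 *cast* fragments, and ΔE2.7 gave 36.0 BL6 and 41.4 *cast* fragments. In ΔE2.5 the higher level therefore lay on the BL6 allele, and in ΔE2.7 mostly on the *cast* allele. Chromosome 1 as a whole followed the same division: the median BL6 share was 52.5% and 52.4% in CB wt, 68.4% in ΔE2.5, 35.3% in ΔE2.7 and 48.7% in ΔP2.1, taken over 584 genes that reached 20 SNP fragments in all samples. A test of the allele difference over both exonic clones gave a log2 change of 0.01 ± 0.52 for *Mdm4* (SE, edgeR adjusted p = 1), with 0 of 10970 genes called (0.0%), and here the clones with opposite shifts enter as replicates. Tested 1 clone at a time, the change in BL6 over *cast* was 0.84 ± 0.07 for ΔE2.5 (SE, edgeR adjusted p = 3.7e-29) and -0.79 ± 0.07 for ΔE2.7 (adjusted p = 1.3e-28), where 5.37% and 5.1% of genes were called, with the lone clone assumed to vary as the near-identical wt pair does.

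In the BC males chromosome 1 was already unequal in wt. The median BL6 share of its genes was 67.9% and 68.2% in BC wt and between 67.7% and 68.2% in the BC clones, against 48.3% and 48.4% in female BC wt. *Mdm4* stood at 69.8% and 70.04% in BC wt, 68.4% in ΔE1, 68.8% in ΔE3, 68.8% in ΔP4, and 54.3% and 53.1% in the female samples. In the BC clones both alleles stood above wt: BL6 fragments on the same scale were 79.4 and 77.0 in wt, 93.6 in ΔE1, 99.2 in ΔE3 and 104 in ΔP4, and *cast* fragments were 34.3 and 32.9 in wt, 43.2 in ΔE1, 44.98 in ΔE3 and 47.4 in ΔP4. The allele difference of the KO effect in BC was -0.08 ± 0.05 for *Mdm4* (SE, edgeR adjusted p = 0.90).

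**Figure D3:**
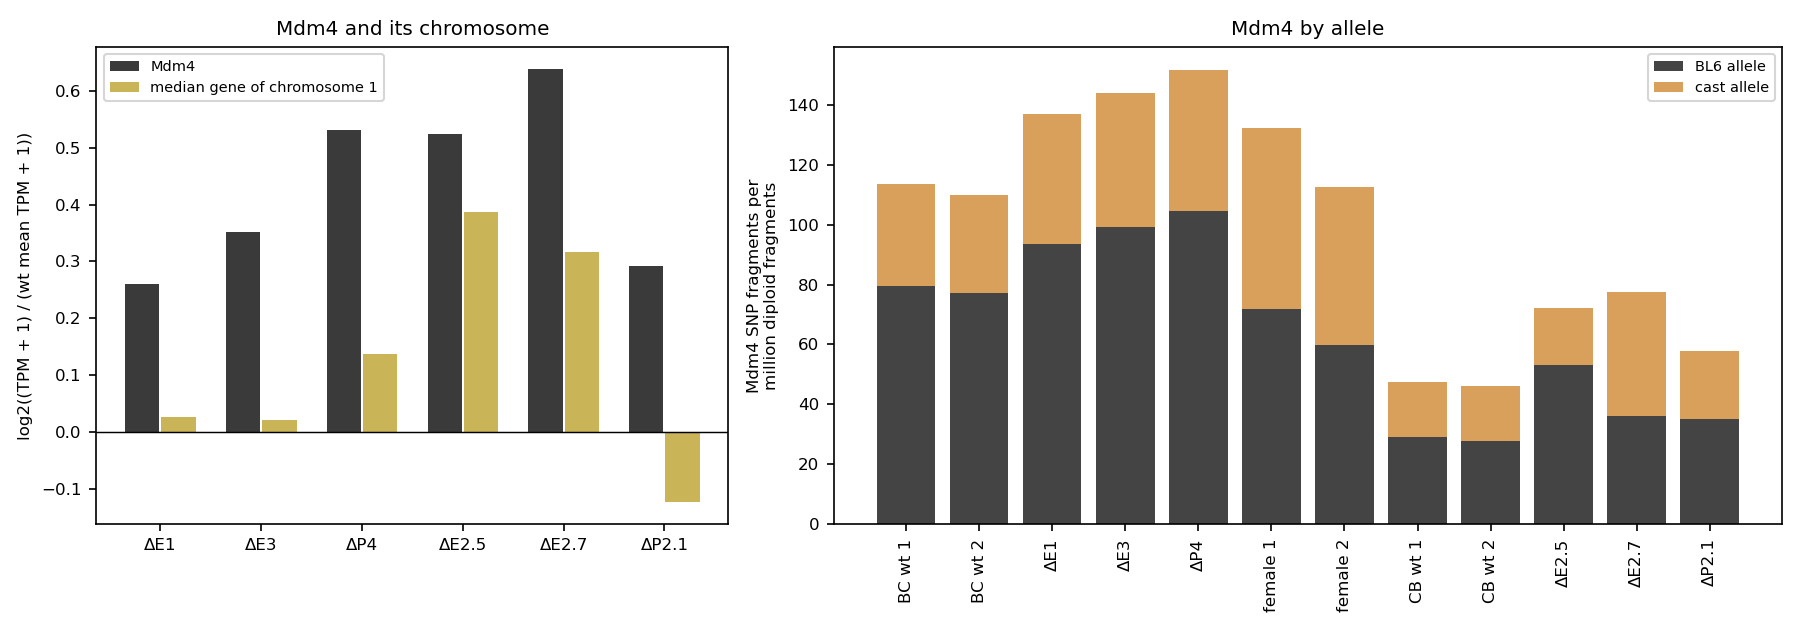
Left, log2 difference from the wt mean (vertical axis) of *Mdm4* and of the median chromosome 1 gene in each KO clone. Right, *Mdm4* SNP fragments of the BL6 and *cast* alleles scaled to 1000000 diploid fragments in all 12 samples as stacked bars. *Mdm4* exceeds the chromosome median in all 6 clones, and the added fragments are BL6 in ΔE2.5 (53.3) and mostly *cast* in ΔE2.7 (41.4).

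The other genes gave few allelic differences. The BL6 share lay between 48.2% and 52.2% for *Cdkn1a*, 45.7% and 49.4% for *Trp53inp1*, 45.03% and 51.7% for *Sesn2*, 45.3% and 58.0% for *Ccng1*, 37.6% and 46.8% for *Bax*, and 41.1% and 48.6% for *Trp53* over all 12 samples. *Mdm2* had 66 to 282 SNP fragments, at most 1.76% of its diploid fragments, and its share is not compared. In BC, 0 of 10 genes had an allele difference called in the KO, exonic or promoter contrasts (0.00865%, 4.61% and 0.104% of 11557 genes in edgeR).

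*Bbc3* and *Zmat3* differed in allele share between lines. *Bbc3* had 0 BL6 fragments of 56 and of 39 in CB wt and 0 of 73 in ΔE2.5, which allow shares of up to 5.36%, 7.69% and 4.11%, and 1 of 66 in ΔE2.7 and 1 of 70 in ΔP2.1. Female BC wt had 1 of 144 and 2 of 141, while the BC males had 40.0% to 49.0% of 81 to 139 fragments. Over 20 neighbouring genes within 1 Mb, the median BL6 share was 19.1% to 20.7% in the female and CB samples and 50% to 51.5% in BC males, so the low share was not limited to *Bbc3*. *Zmat3* (chromosome 3:32334792-32366014, minus strand), encoding an RNA-binding zinc finger protein, had a BL6 share of 60.8% to 63.1% in BC males, 49.6% and 47.6% in CB wt, 50.8% in ΔE2.5, 49.0% in ΔE2.7 and 63.6% in ΔP2.1 (95% Wilson interval 61.2% to 65.9%, 1675 fragments). Its allele change in ΔP2.1 against CB wt, a contrast added after the data were seen, was 0.93 ± 0.10 on the log2 scale (SE, edgeR adjusted p = 0.0083), where 6.93% of genes were called, and it was not called without either CB wt sample. For *Zmat3* ΔP2.1 thus lay near the BC males and above the other CB samples.

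Fibroblast markers, examined because the cells were grown on feeders, were lower in the CB exonic clones, as were several of the 10 genes. The summed level of 11 fibroblast markers was 2486 and 2419 TPM in CB wt, 649 in ΔE2.5, 1207 in ΔE2.7 and 2646 in ΔP2.1, and 27.9 to 219 TPM in BC males. Most of it was *Tagln* and *Acta2*, which other cells also express. Of the defining markers, *Col1a1* stood at 56.3 and 52.1 TPM in CB wt, 7.5 in ΔE2.5, 19.9 in ΔE2.7 and 102 in ΔP2.1. *Col1a2* stood at 2.83 and 2.76 TPM in CB wt and 1.41 in ΔP2.1, and *Dcn* at 4.77 and 4.29 in CB wt and 3.26 in ΔP2.1, so the markers did not share a direction in that clone (median log2 fold change 0.05). *Lum* and *Postn* were under 1.5 TPM in every sample. Of the 9 markers tested in CB, 2 were called lower in the exonic clones, with a median log2 fold change of -1.61. Both exonic clones were below wt and ΔP2.1 in these markers, as they were in *Mdm2*, *Cdkn1a*, *Ccng1*, *Zmat3*, *Trp53inp1* and *Sesn2*. *Bax* and *Bbc3* lay above wt in the same clones, and ΔE2.5 had a lower marker sum than ΔE2.7 but higher *Mdm2*, *Ccng1*, *Zmat3* and *Trp53inp1*. The part of the markers' source in those differences was not tested, and in bulk samples fewer cells of a type and less RNA per cell cannot be told apart.

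**Figure D4:**
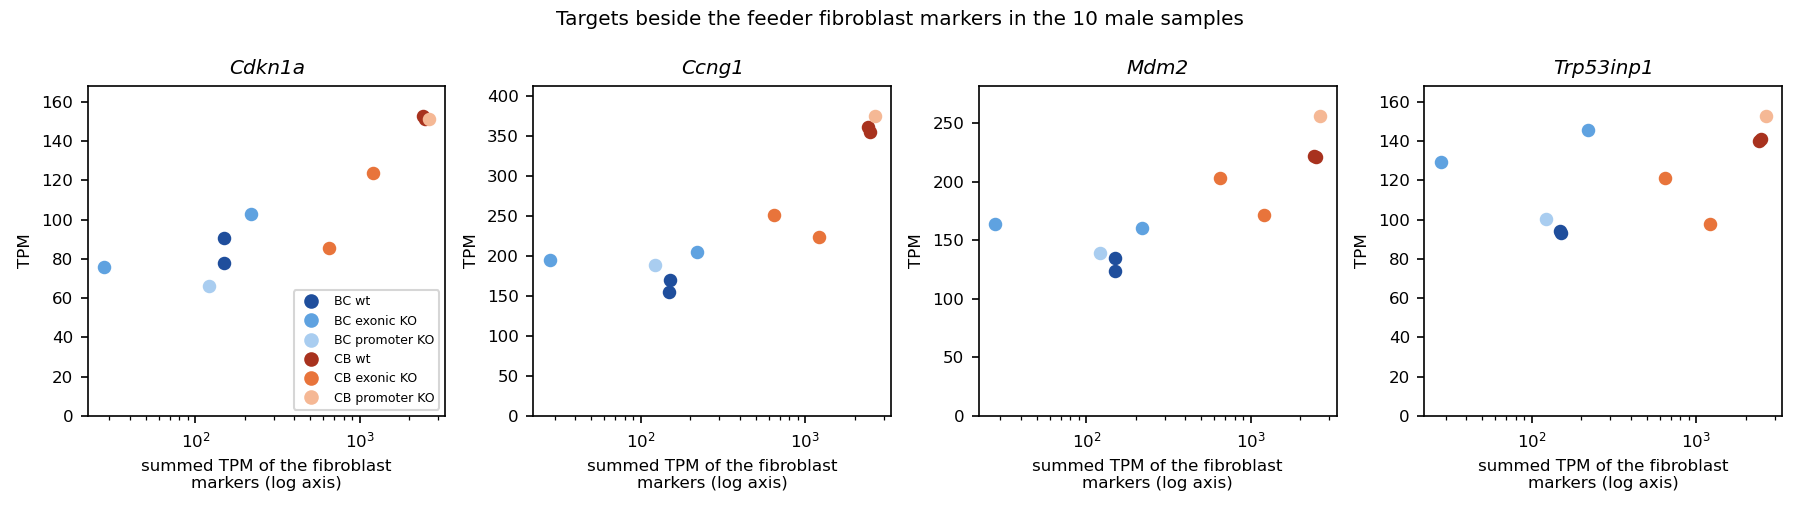
TPM of *Cdkn1a*, *Ccng1*, *Mdm2* and *Trp53inp1* (vertical axes, linear) against the summed TPM of 11 fibroblast markers (horizontal axes, log scale) in the 10 male samples, coloured by group. Within CB, both exonic clones (649 and 1207 TPM of markers) are lower in all 4 genes than wt and ΔP2.1 (2419 to 2646), while the BC samples span 27.9 to 219 TPM of markers.

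Further p53 targets were counted from a list of 40 genes. In BC, 0 of the 38 tested were called in all KO clones in edgeR, with 4 at an unadjusted p under 0.05 (11.0% of all genes) and a median log2 fold change of 0.09, and the genes of smallest p were *Gadd45a* (0.52 ± 0.14), a DNA damage gene, and *9030617O03Rik* (0.91 ± 0.32). In CB, 0 of 39 were called over all clones, with 9 at an unadjusted p under 0.05 (20.5% of all genes), and the genes of smallest p were *Sfn* (-0.81 ± 0.16), encoding 14-3-3 sigma, and *Psrc1* (0.29 ± 0.06). In the CB exonic clones 1 of 39 was called higher and 6 lower, where 2.62% and 4.11% of all genes were. As given for *Mdm4*, all calls in that comparison needed both CB wt samples. The list's median log2 fold change there was -0.09, against 0.01 over all genes.

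Among those called lower in the CB exonic clones were *Perp* and *Plk2*. *Perp*, a desmosomal apoptosis effector, went from a mean of 170 TPM to 73.0 (-1.14 ± 0.05, SE), and the kinase gene *Plk2* from 173 to 79.4 TPM (-1.04 ± 0.05, SE). Both moved in the same direction as the fibroblast markers given above, and that link was not tested. In the direct comparison between crosses of the exonic difference from wt, 5 of 39 targets were called, where 2.74% of all genes were called in the same direction. That comparison was chosen after the data were seen, and its calls in that direction needed every male wt sample. All 5 had a log2 fold change higher in BC than in CB, and *Dcxr* had the largest difference (1.53 ± 0.16, SE). Against wt, 0 of 38 targets were called in the BC exonic clones (0.00724% of genes tested). In the CB exonic clones, as given above, 1 of 39 was called higher and 6 lower.

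Regulators of p53 and target genes of the DREAM complex, through which p21 represses the cell cycle, gave few calls. Of 20 tested regulators, 0 were called in KO against wt in BC (1 at an unadjusted p under 0.05, 11.0% of all genes) and 0 in CB (4 at an unadjusted p, 20.5% of all genes), and 1, the kinase gene *Hipk2*, was called higher in the CB exonic clones (0.66 ± 0.08, SE), where 2.62% of all genes were. These counts are near the background. Of 20 DREAM targets, 0 were called in KO against wt in BC (4 at an unadjusted p under 0.05, 11.0% of all genes) and 0 in CB (3 at an unadjusted p, 20.5% of all genes). In the exonic clones 0 were called in either cross (0.00724% of all genes in BC and 6.73% in CB). At an unadjusted p under 0.05, 6 DREAM targets were higher and 1 lower in the CB exonic clones (35.4% of all genes). Their median log2 fold change was 0.11. In the BC exonic clones 4 DREAM targets were higher and 1 lower at an unadjusted p under 0.05 (17.7% of all genes), with a median log2 fold change of 0.09, and those of smallest p were *Mcm5*, a replication helicase gene (-0.70 ± 0.11, SE), and *Mybl2* (0.42 ± 0.10, SE).

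Larger differences lay between the unedited lines, where the background was large. Female against male BC wt, 3 of 10 genes were called, where 44.5% of 14049 genes were. Sex cannot be told apart from cell line in this comparison. The median BL6 share of chromosome 8 genes, for example, was 44.2% and 44.5% in females, against 66.8% and 67.1% in male BC wt. *Trp53* was lower in females, at 444 and 415 TPM against 852.5 and 732.9, a log2 fold change of -0.94 ± 0.08 (SE, edgeR adjusted p = 1.5e-06). *Cdkn1a* was higher, at 198 and 191 TPM against 90.4 and 77.7, a log2 fold change of 1.15 ± 0.08 (SE, edgeR adjusted p = 2.4e-07). *Bbc3* was higher too, at 90.4 and 103.4 TPM against 63.3 and 53.7, a log2 fold change of 0.67 ± 0.10 (SE, edgeR adjusted p = 6.8e-05), though it passed 1.5-fold in only 2 of the 4 fits with 1 sample left out.

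*Trp53* and its target *Cdkn1a* thus lay in opposite directions between female and male BC wt. *Sesn2* was lower in females by a log2 fold change of -0.52 ± 0.07 and *Zmat3* higher by 0.53 ± 0.09 (SE), both at an adjusted p under 0.05 in edgeR but under 1.5-fold. *Mdm4* stood at 171 and 151 TPM in females, a log2 fold change of 0.08 ± 0.08, while the median of 744 chromosome 1 genes was -0.59 and 79.4% of them lay below *Mdm4*. *Mdm4* therefore lay in the upper part of the chromosome 1 genes in this comparison. Of the other targets 9 of 39 were called higher and 9 lower, where 24.5% and 19.9% of all genes were, so these counts are near the background. They were led by *9030617O03Rik* (2.39 ± 0.12, SE) and *Gdf15* (2.30 ± 0.11, SE). Fibroblast markers summed to 42.2 and 41.0 TPM in females against 149 in each BC male wt sample.

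CB against BC male wt, 4 of 10 genes were called, where 34.5% of 13828 genes were. *Ccng1* was higher in CB by a log2 fold change of 1.07 ± 0.06 (SE, edgeR adjusted p = 1.4e-05), *Cdkn1a* by 0.79 ± 0.07 (adjusted p = 0.00010) and *Mdm2* by 0.71 ± 0.06 (adjusted p = 6.8e-05). *Mdm4* was lower by -1.33 ± 0.05 (SE, edgeR adjusted p = 2.4e-06), at 61.7 and 59.98 TPM against 151 and 142. The median of 741 chromosome 1 genes was -0.47 in this comparison and 8.77% of them lay lower than *Mdm4*, so its difference was larger than that of its chromosome. *Trp53* had a log2 fold change of -0.41 ± 0.07 (SE, edgeR adjusted p = 0.0019), below 1.5-fold.

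In the same comparison, 16 of 39 other targets were called higher and 4 lower, where 19.8% and 14.7% of all genes were, with a median log2 fold change of 0.36 against -0.01 over all genes. *Sfn* (2.44 ± 0.05), *Perp* (2.37 ± 0.07) and *Plk2* (2.28 ± 0.05) led them. Fibroblast markers were higher in CB as well, 8 of 9 being called, and the actin-GFP transgene, the cross and the line cannot be told apart from one another here. The DREAM targets had 0 called higher and 4 of 20 lower, near the share of all genes called lower, among them *Mybl2* (-1.09 ± 0.05, SE), a cell cycle transcription factor gene. At an edgeR adjusted p under 0.05 and any fold, 15 of 20 were lower and 2 higher. Of all 13828 genes, 4848 were lower and 5019 higher by that measure. The DREAM targets had a median log2 fold change of -0.23, against -0.01 over all genes.

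**Figure D5:**
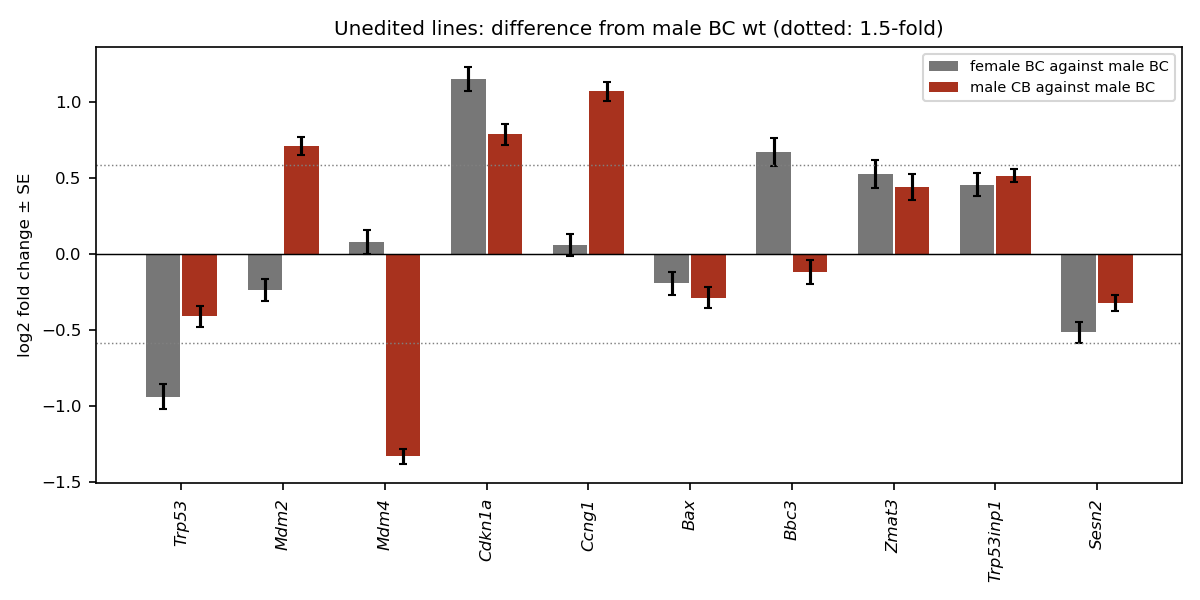
Fitted log2 fold change (vertical axis, bars with SE) of the 10 genes in female BC wt and in male CB wt, each against male BC wt, with dotted lines at 1.5-fold. *Cdkn1a* is higher in both (1.15 and 0.79) and the largest negative bars are *Trp53* in females (-0.94) and *Mdm4* in CB (-1.33). Both comparisons share the male BC wt samples.

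Across the 10 male samples, each cross centred on its wt mean, the genes of at least 5 TPM most like *Trp53* in log2(TPM + 1) were *Atp5sl* (Pearson's r = 0.99), *Snrnp70* (0.98) and *Psmd3* (0.98), out of 10723 genes. Those most like *Cdkn1a* were *Nkain4* (0.97), *Yipf3* (0.96) and *Cryab* (0.95). Among the members the closest pair was *Mdm2* with *Trp53inp1* (r = 0.95), followed by *Mdm2* with *Ccng1* (0.91). The values for *Trp53* ran from 0.87 with *Bax* to -0.66 with *Ccng1*. These are descriptions over 10 samples, ΔP2.1 included, that share lines, clones of common origin and, in CB, the fibroblast marker differences.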

How the data were processed

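RNA was measured in 12 samples: male BC and CB wt (2 each), 3 male KO clones per cross and 2 female BC wt. Per the labels and the study's methods, the authors mapped reads to the mm10 BL6 genome and a pseudo-*cast* genome (Bowtie2 2.2.5 is named in the submitters' processing notes), kept reads with a single confident placement, and deposited estimated counts of fragments per gene, diploid and per allele by SNP, without normalization. The tool that summed counts per gene, and whether strand was used, are not given in the sources used here.

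Counts were rounded and tested with edgeR 4.0.16 (TMM, quasi-likelihood, genes above 1 TPM in at least 1 sample compared, Benjamini-Hochberg over all genes, R 4.3.3) within each cross, leaving out in BC the 3 genes of the shared deletion, with groups wt, exonic and promoter or wt and KO. DESeq2 1.42.0 was an alternative. Alleles were tested as BL6 against *cast* within samples, for genes with at least 20 SNP fragments. TPM used transcript lengths of a GENCODE M21 annotation (GRCm38), matched by symbol for 23310 genes, and the median length for the other 1036. The fits were checked on simulated data with independent samples, the same spread for all genes and changes larger than those fitted for the members. That check does not show how often changes of the members' size would be called. Figures and tables used Python 3.11.15.

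The members and gene lists were chosen with earlier results of these data known. All 10 members are named. Of other lists, up to 3 called genes of largest change are named per comparison, or the 2 of smallest p where none was called, and 3 genes most correlated with *Trp53* and *Cdkn1a*. *Kdm6a* is named as the edited gene, and chromosome 1 and marker genes as stated. No promoter or protein sequence was used here. One gene that this rule names is not reported here.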

Additional observations from a re-analysis of the deposited data

Results flagged for a closer look

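For *Ccng1*, the difference between exonic clones and wt was not the same in both crosses, with a log2 fold change higher in BC than in CB by 0.80 (edgeR). In TPM the exonic clones stood at 205 and 195 against 155 and 170 in BC wt, and at 251 and 224 against 354 and 361 in CB wt. *Trp53inp1* was picked out by the same test, with a difference of 0.83 on the log2 scale. Its exonic clones stood at 146 and 129.5 TPM against 94.1 and 93.3 in BC wt, and at 121 and 97.8 against 141 and 139.9 in CB wt. The comparison was chosen after the data were seen, 5.79% of all genes tested passed it, and it did not hold without any 1 of the 4 wt samples. Fibroblast marker sums differed between the same CB samples, and their part was not tested. The changed chromosome dosage of the exonic clones and the shared unintended deletion in BC cannot be told apart from the *Kdm6a* deletion here.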

How the results depend on the processing

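Of 614 member fold changes recomputed under other settings, 604 kept direction and side of the threshold, and 3 gained a call, all for *Ccng1* between exonic clones and ΔP2.1 (DESeq2, genes above 5 TPM, all 12 samples in 1 fit), which gave 1 called gene in place of 0. Of 410 with a sample left out, 367 kept both. The 7 that changed sign were small: *Bax* in the BC exonic clones at -0.0045 in DESeq2 and with its size factors, -0.018 with TMM without chromosomes 1, 8, X and Y, -0.005 without a filter and -0.0035 with ΔE1 and ΔE3 averaged, *Zmat3* in BC KO at -0.0142 with the same averaging, and *Mdm2* in CB KO at 0.0071 with TMM without those chromosomes.

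With each sample left out in turn, log2 fold changes that crossed 0 ranged, in BC KO, from -0.2961 to 0.0685 for *Cdkn1a* and from -0.0757 to 0.2443 for *Zmat3*. In CB KO they ranged from -0.1629 to 0.1141 for *Mdm2*, from -0.2798 to 0.0261 for *Trp53inp1* and from -0.0913 to 0.1515 for *Sesn2*. In the BC exonic clones they ranged from -0.177 to 0.1244 for *Trp53*, from -0.1592 to 0.2713 for *Cdkn1a*, from -0.2336 to 0.2026 for *Bax* and from -0.0075 to 0.5014 for *Bbc3*. In female against male wt they ranged from -0.0026 to 0.1631 for *Mdm4* and from -0.0206 to 0.144 for *Ccng1*. The allele difference of *Mdm4* in CB ranged from -0.385 to 0.4292 over all KO clones and from -0.7899 to 0.8354 over exonic clones.

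The number of called members with a sample left out ranged from 0 to 1 in CB KO and in the BC exonic clones, from 0 to 2 in the CB exonic clones, from 0 to 4 between exonic and promoter clones in BC and from 0 to 2 in CB, from 0 to 1 for the difference between crosses and from 0 to 3 for that of the exonic clones. For alleles in CB it ranged from 0 to 1 in the exonic and in the promoter contrasts. A lone sample left in a group was assumed to vary like the other groups. The chromosome 1 median was 0.4333 in ΔE2.5 and 0.3527 in ΔE2.7 with a pseudocount of 0.1 TPM, 0.4297 and 0.3607 over genes above 5 TPM, and 0.3754 and 0.278 over genes within 10 Mb of *Mdm4*, the last chosen after seeing the data.

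A replicate block by wt number left the counts of called members at 3 in female against male and 4 in CB against BC, and moved those of all genes from 6247 to 6283 and from 4773 to 4825. Same-numbered samples share only a number, with a correlation of deviations of 0.24 and 0.10. No paired analysis was possible because KO clones share no numbers with wt. Precision is limited by 2 samples or 1 per group, by the near-identical CB wt pair and, for alleles, by SNP fragments, of which *Bbc3* had 39 to 144.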
